A study of Mus musculus with 18 samples.

Results

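The net change in messenger RNA over 3 days of cardiac reprogramming was measured in control cells of the iMGT-Myh6-eGFP-MEF line, as the difference between siControl libraries of day 3 and siControl libraries of day 0. The members were the 6 libraries of these groups, 3 of each, out of 18 in the series, and all genes of the deposited count table. The line consists of mouse embryonic fibroblasts that express the transcription factors Mef2c, Gata4 and Tbx5 (MGT) when doxycycline is given, and its name includes a green fluorescent reporter of the heart gene Myh6. Cells of the day 3 group were transfected with a control siRNA, received 1 µg/mL doxycycline on the next day, named day 0, and were collected 3 days later. Cells of the day 0 group came from the same line, received the same siRNA and were collected without doxycycline. The 3 siControl libraries of day 1 and the 9 libraries of cells given an siRNA against Chst7 (siChst7) at days 0, 1 and 3 serve here only for comparison.

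All libraries came from 1 cell line, and each pooled 40 wells of a 384-well plate seeded with 1000 cells per well, so that no library describes single cells. No group without doxycycline was followed to day 3. The factors, doxycycline itself, culture time and days elapsed from transfection therefore cannot be told apart in this contrast. In such bulk RNA, fewer cells of a type and less RNA per cell cannot be told apart either. The labels call the 3 libraries of a group biological replicates but do not say whether they came from separate cultures. The p-values rest on the spread between such libraries, estimated over all 18 in 1 fit, so that the spread of the siChst7 groups enters them too.

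Mef2c, Gata4 and Tbx5 are DNA-binding proteins of the developing heart that together can push fibroblasts toward a state resembling heart muscle cells. Heart muscle contracts through the sarcomere, in which thin filaments of actin, tropomyosin and troponin slide along thick filaments of myosin between Z-discs, under the control of calcium released from the sarcoplasmic reticulum. Fibroblasts, in contrast, are known for making and remodelling extracellular matrix and for releasing chemokines and cytokines, and the loss of that programme is one of the features followed in reprogramming.

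Total counts per library were 33129954 to 43905193 at day 3 and 44687733 to 46730986 at day 0. Pairs of replicates in the siControl groups differed by more than counting noise, at 2.93 to 4.62 times its variance (chi-square over its degrees of freedom), so that no libraries were merged. The leading principal component of the 9 siControl libraries, with 83.5% of the variance, put day 3 at -39.7 to -38.9, day 1 at -14.4 to -13.4 and day 0 at 52.9 to 53. Rn45s, the ribosomal RNA precursor and a sign of how well poly-A selection removed ribosomal RNA, took 0.399% to 0.542% of the counts at day 3 and 0.131% to 0.168% at day 0. Its part in the results was not tested. The siChst7 day 3 libraries stood apart from one another, at 21.6 to 56.5 on the same measure, and replicate 1 of that group had 1.96% Rn45s.

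Most measured genes differed between day 3 and day 0, and most of these differences were small. Of 24514 genes, 13802 passed a filter on low counts and were tested, and 10132 (73.4%) were called, that is, had a Benjamini-Hochberg adjusted p below 0.05 in edgeR's two-sided quasi-likelihood test. Of all genes tested, 4680 (33.9%) were called higher at day 3 and 5452 (39.5%) lower. Only 1725 (12.5%) were called with a level at least 2-fold higher and 1298 (9.4%) with a level at least 2-fold lower, so that 70.2% of the called genes lay within 2-fold. The median log2 fold change (log2FC, day 3 over day 0) of all genes tested was -0.05. The tails were uneven. At least 8-fold higher levels were called in 509 genes against 192 at least 8-fold lower, and at least 32-fold in 211 against 54. The split of calls depends on the scaling of the libraries and on the filter. After TMM scaling 46.2% of the calls were higher, against 51.1% with TMM and the stricter filter and 57.8% with library totals alone. With library totals alone the median of all genes was 0.1, so that small values have no fixed direction. Lamb1, for example, had a log2FC of -0.13 with TMM and 0.02 with library totals alone.

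**Figure D1:**
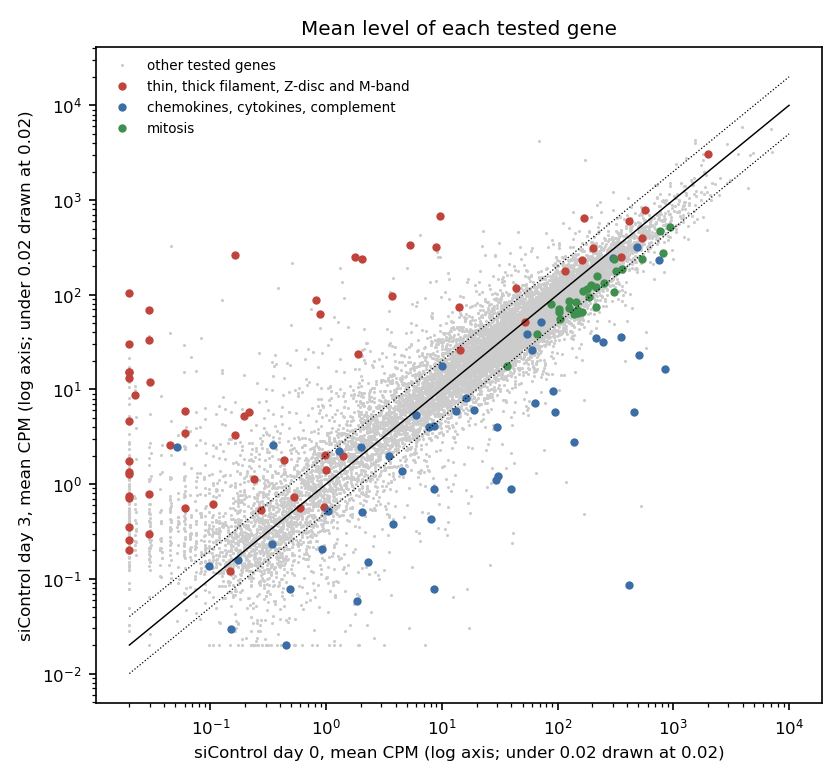
Mean CPM (counts per 1000000 of the TMM-scaled library total) of each tested gene in siControl cells at day 3 (vertical, log axis) against day 0 (horizontal, log axis); the solid line marks equal levels, dotted lines 2-fold, and means under 0.02 are drawn at 0.02. Sarcomere genes form a column at low day 0 levels that reaches 680 CPM for Tnnt2 at day 3, and inflammatory genes lie below the line, with Cxcl5 at 0.0859 CPM at day 3 and 416 CPM at day 0.

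The 3 delivered factors were all higher at day 3, with log2FC of 2.44 to 2.77. Tbx5 (chromosome 5, 119796514 to 119885220, GRCm38) had 745, 740 and 745 CPM at day 3 and 138, 140 and 132 CPM at day 0. Gata4 had 463, 448 and 440 CPM at day 3, against 80.1, 82.7 and 78.0 CPM at day 0. Mef2c had 326, 321 and 320 CPM at day 3, against 46.9, 49.2 and 45.2 CPM at day 0. For each factor the day 3 libraries lay above every day 0 library and varied little among themselves; over all genes tested, 10934 (79.2%) had groups that did not overlap. The log2FC was 2.44 ± 0.05 for Tbx5, 2.49 ± 0.05 for Gata4 and 2.77 ± 0.05 for Mef2c (± is the standard error from the fit). The reads of the delivered copies and of the cells' own genes were summed in these counts, and the day 0 level cannot be split between expression without doxycycline and the cells' own genes.

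Genes of the sarcomere were higher in nearly all tested members, many by large factors. Of 20 genes listed for the thin filament, 18 were tested, 16 were higher and 2 were lower, Tpm3 and Tmod4 (the call of Tmod4 was lost when any of 4 libraries was left out), with a median log2FC of 4.64. Of 22 genes of the thick filament, 13 were tested, 10 were higher and none was lower, with a median of 3.25 when genes near 0 at day 0 are set to their lowest bound (3.56 as fitted). Of 36 genes of the Z-disc and M-band, 30 were tested, 26 were higher and only Pdlim5 was lower, with a median of 4.49 at the bound (4.93 as fitted). Of all genes tested, 33.9% were higher. Members that rose were not all tissue-restricted: Tpm1 and Flnc, which fibroblasts also express, had log2FC of 0.64 ± 0.04 and 0.46 ± 0.05.

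In the thin filament, the troponin genes Tnnt2 and Tnnc1 and the actin Actc1 were low or near 0 at day 0 and well expressed at day 3. Tnnt2 (chromosome 1, 135836315 to 135852268), which encodes the cardiac troponin T that anchors the troponin complex to tropomyosin, had 703, 654 and 682 CPM at day 3 and 10.1, 9.94 and 8.91 CPM at day 0, a log2FC of 6.14 ± 0.09 (edgeR adjusted p = 8.14e-24). Tnnc1, the calcium-binding troponin C of heart and slow muscle, had 235, 234 and 245 CPM at day 3, against 1.91, 2.19 and 2.05 CPM at day 0. Actc1, the cardiac alpha-actin, had 109, 94.9 and 111 CPM at day 3 and 0.0461, 0 and 0 CPM at day 0. For all 3 genes the groups were far apart and the libraries of a group close together. Actc1 rested on 13177 counts at day 3 and 2 counts at day 0, a ratio of 6970 with a 95% interval of 1930 to 57500 that covers counting error only. Acta1, the skeletal alpha-actin, was already expressed at day 0 and rose less, with 73.8, 70.3 and 76.2 CPM at day 3 and 14.5, 15.1 and 12.5 CPM at day 0 (log2FC 2.39 ± 0.10). Levels per gene length, in TPM (length-scaled counts per 1000000 of their library total), were 1440 for Tnnt2, 899 for Tnnc1, 191 for Actc1 and 124 for Acta1 at day 3.

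In the thick filament, the essential and regulatory light chains of the atrium had the highest levels at day 3, and Mybph and Mybpc3 rose by larger factors than Myl4. Myl4 had 246, 236 and 266 CPM at day 3 and 1.84, 1.73 and 1.78 CPM at day 0 (log2FC 7.12 ± 0.15, edgeR adjusted p = 1.01e-20). Myl7 had 65.2, 66.8 and 73.8 CPM at day 3, against 0, 0.0885 and 0 CPM at day 0. Its 8675 and 4 counts gave a ratio of 2290 (895 to 8420). Mybpc3, the cardiac myosin binding protein C, had 15.2, 15.0 and 15.4 CPM at day 3 and 0.0461, 0 and 0 CPM at day 0, a ratio of 1010 (281 to 8380). These 3 genes had levels at day 3 that differed little among libraries. At day 0, Myl7 and Mybpc3 were at or near 0, and Myl4 was low. Mybph, a related myosin binding protein, had 1934 counts at day 3 and 0 at day 0, at least 682-fold higher against a floor of 3 counts over the day 0 group.

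The cardiac heavy chains Myh6 and Myh7 stayed low. Myh6, the alpha heavy chain of the heart and the gene behind the reporter in the line's name, had 1.47, 1.34 and 1.47 CPM at day 3 and 1.06, 1.13 and 0.825 CPM at day 0. Its log2FC was 0.50 ± 0.20 (edgeR adjusted p = 0.0273), and the groups did not overlap, as in 79.2% of all genes tested. The call was lost without day 3 replicate 1, day 3 replicate 3 or day 0 replicate 3 (log2FC 0.37 to 0.48, edgeR adjusted p 0.0598 to 0.126). Myh7, the beta heavy chain, had 0.819, 0.657 and 0.712 CPM at day 3 and 0.553, 0.553 and 0.468 CPM at day 0, and was not called (log2FC 0.46 ± 0.33, edgeR adjusted p = 0.208). Per gene length, Myh6 had 0.622 TPM and Myh7 had 0.32 TPM at day 3, against 750 TPM for Myl4 and 309 TPM for Myl7. The ventricular light chain Myl2 had 27 counts over the 3 day 3 libraries and 2 over the day 0 libraries, and the call of its change was lost without day 3 replicate 2. Myl3, the other ventricular light chain, had 0 counts in all 6 libraries. Of the skeletal heavy chains, Myh1 had 44 counts at day 3 and 0 at day 0, at least 15.5-fold higher.

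Other markers of mature heart muscle had few counts at day 3, although several were higher than at day 0. Tnni3, the cardiac troponin I, had 171 counts at day 3 and 2 at day 0, a ratio of 90.4 (24.7 to 753), and its level was 4.33 TPM at day 3, far under that of its partners Tnnt2 and Tnnc1. Ryr2, the calcium release channel, had 66 counts at day 3 and 1 at day 0, a ratio of 69.8 (12.1 to 2800). Actn2, the actin crosslinker of the Z-disc, had 4 counts at day 3 and 0 at day 0, and Pln, the inhibitor of the calcium pump, had 7 and 2. Of 12 defining cardiomyocyte markers, 11 were tested and 10 were higher, beside 33.9% of all genes tested. Their summed level was 1900 to 2010 TPM at day 3 and 17.7 to 21.2 TPM at day 0, most of it from Tnnt2. All day 0 counts of Actc1, Mybpc3 and Tnni3 lay in replicate 1 and all those of Myl7 in replicate 2, so that without that library each had 0 counts at day 0.

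**Figure D2:**
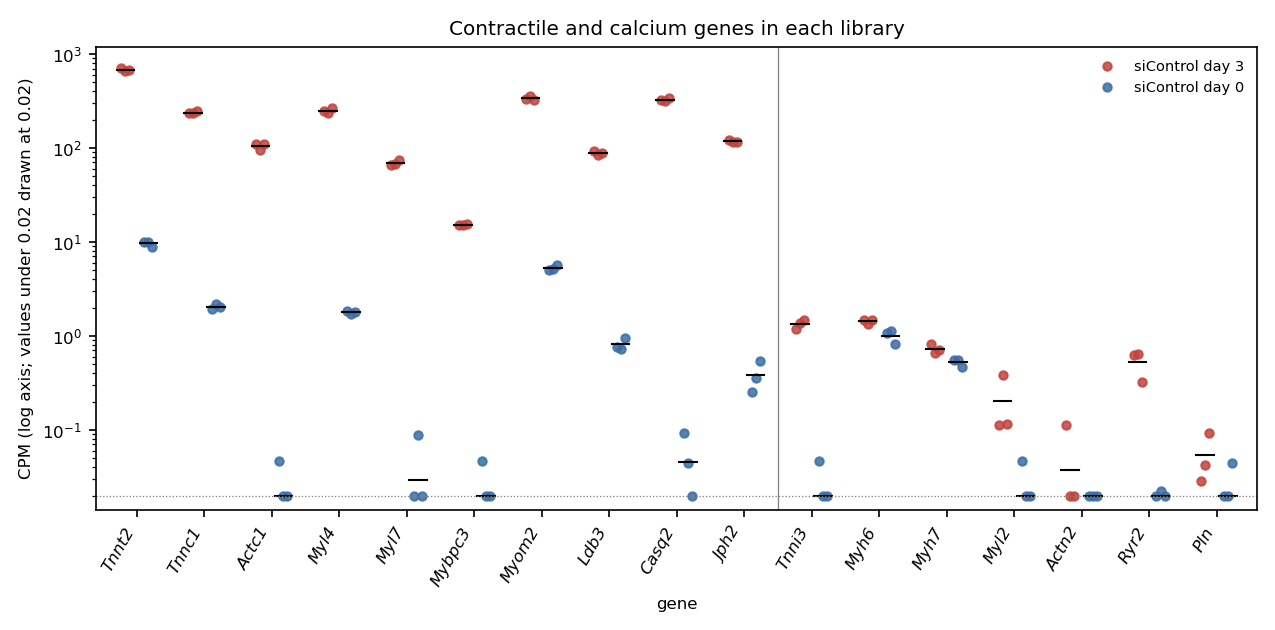
CPM (log axis) of contractile and calcium genes in siControl cells, with the 3 libraries of day 3 left of the 3 of day 0 for each gene; points are libraries, black bars are means, and values under 0.02 are drawn at 0.02. Tnnt2 averaged 680 CPM at day 3 and 9.65 CPM at day 0, while Myh6 averaged 1.42 CPM at day 3 and 1 CPM at day 0, and Actn2 and Pln stayed near 0 in both groups.

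Among Z-disc and M-band genes, scaffold proteins and the giant titin rose. Pdlim3, a PDZ-LIM protein that binds alpha-actinin, had 32.7, 28.0 and 31 CPM at day 3 and 0 counts in every day 0 library, at least 1350-fold higher. Synpo2l, an actin-associated protein of the Z-disc, had 260, 277 and 260 CPM at day 3 and 0.184, 0.177 and 0.134 CPM at day 0 (log2FC 10.63 ± 0.14). Ldb3, which links alpha-actinin to signalling kinases, had 92.8, 84.3 and 88.6 CPM at day 3, against 0.761, 0.73 and 0.958 CPM at day 0 (log2FC 6.75 ± 0.09). Every day 3 library of these genes exceeded every day 0 library, while 79.2% of all genes tested had groups that did not overlap. The M-band proteins Myom1 and Myom2 rose by log2FC of 6.13 ± 0.10 and 6.00 ± 0.08, and Myom2 reached 333, 353 and 326 CPM at day 3, against 4.98, 5.16 and 5.71 CPM at day 0. Des, the muscle intermediate filament, had a log2FC of 4.69 ± 0.10, and Ttn, the giant spring of the sarcomere, one of 3.64 ± 0.13 with 25.4, 20.6 and 24.1 CPM at day 3 and 2.17, 2.01 and 1.45 CPM at day 0. Bag3, a chaperone partner of the Z-disc, was not called (log2FC -0.03 ± 0.05, edgeR adjusted p = 0.67).

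Promoter sequence is shown for sarcomere genes and Casq2, which rose, because Mef2c, a delivered factor, and serum response factor (SRF) are known to bind AT-rich elements near muscle genes, and for proteases that fell, because AP-1 sites are known at their promoters. Ldb3, a gene that rose, held AP-1 letters too. RefSeq promoters (GRCm38.p6) were searched over 250 bases before the start of each gene on both strands, and 10511 of the 13802 tested genes had one. The MEF2 consensus and the CArG box, the element bound by SRF, were searched by those names. The letters for AP-1 were TGANTCA, those for GATA factors were AGATAA, and those for the TATA box were TATAAA. The last of these can lie inside a MEF2 or CArG match. Each window gives 30 bases 5′ to 3′ on the gene's strand, with the match in capitals.
Actc1, CArG box, chr2:114052903-114052932, minus strand: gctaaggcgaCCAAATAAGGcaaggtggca
Myl7, CArG box, chr11:5898824-5898853, minus strand: ccattcctctCCTTATTTGGgcctctgggt
Ldb3, CArG box, chr14:34588697-34588726, minus strand: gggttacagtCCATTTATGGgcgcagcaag
Ldb3, AP-1, chr14:34588758-34588787, minus strand: tattagctgcgTGAGTCAtggtggaccggc
Casq2, MEF2 consensus, chr3:102086336-102086365, plus strand: attgcatgatTTATTTTTAGctcgaaacaa
Mybpc3, MEF2 consensus, chr2:91118044-91118073, plus strand: tggaatttgtCTATATTTAGcaggtggcta
Synpo2l, MEF2 consensus, chr14:20668444-20668473, minus strand: gaaatttgtaCTATAATTAGttctaggagt
Mmp3, AP-1, chr9:7445765-7445794, plus strand: ggaagcaattaTGAGTCAgttttcgggtga
Mmp13, AP-1, chr9:7272468-7272497, plus strand: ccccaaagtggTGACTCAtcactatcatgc

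Of 33 promoters of sarcomere genes at least 2-fold higher, 6 (18.2%) held the MEF2 consensus and 6 (18.2%) a CArG box, beside 1.53% and 1.22% of the promoters of all tested genes. The same 33 also held the other letters more often than all tested genes, with the TATA box in 6 (18.2%), AP-1 in 4 (12.1%), GATA in 4 (12.1%) and the T-box in 1 (3.03%). A higher share than in all tested genes was thus not limited to MEF2 and the CArG box, and the sizes of these excesses were not tested. The MEF2 consensus stood in 2.82% of the 1275 promoters of genes at least 2-fold higher and in 2.14% of the 934 of genes at least 2-fold lower, and the CArG box in 1.8% and 1.61%. GATA letters stood in 5.41% and 6.1% of these sets and in 5.57% of the promoters of all tested genes, and the T-box, the element of Tbx5, in 1.25%, 0.749% and 0.771%. AP-1 letters stood in 5.33% of the promoters of genes at least 2-fold higher, in 8.99% of those of genes at least 2-fold lower and in 4.69% of those of all tested genes. The TATA box letters were in 7.61%, 10.6% and 6.59% of the same sets. A match describes the letters of the window and does not show that a factor binds there.

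Calcium handling genes were mixed, with a large rise of the storage and junction proteins. Of 25 listed, 20 were tested, 12 were higher and 5 lower (median log2FC 0.95), beside 33.9% and 39.5% of all genes tested. Casq2, the cardiac calsequestrin that buffers calcium in the sarcoplasmic reticulum, had 324, 318 and 336 CPM at day 3 and 0.0922, 0.0443 and 0 CPM at day 0, a ratio of 7240 (3330 to 19700) from 41092 and 6 counts, and its log2FC was 12.73, or 13.65 without day 0 replicate 1. Jph2, junctophilin, which holds the reticulum to the cell membrane, had 122, 115 and 117 CPM at day 3, against 0.254, 0.354 and 0.535 CPM at day 0 (log2FC 8.26 ± 0.12). Both genes had tight groups with no overlap, and 79.2% of all genes tested had none either. Trdn, the anchor of calsequestrin at the release channel, had 413 counts at day 3 and 1 at day 0, a ratio of 437 (78 to 17300). The pump Atp2a2, which returns calcium to the reticulum, fell, with 663, 651 and 653 CPM at day 3 and 976, 941 and 947 CPM at day 0 (log2FC -0.54 ± 0.05). The L-type channel subunits Cacna1c, Cacna1d and Cacnb2 fell too, with log2FC of -0.84 ± 0.06, -1.16 ± 0.20 and -1.77 ± 0.22.

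Of 32 genes of ion channels and cell junctions, 15 were tested, 7 were higher and 3 lower, beside 33.9% and 39.5% of all genes tested. Jup, the plakoglobin of adherens junctions and desmosomes, had 328, 324 and 338 CPM at day 3 and 23.4, 21.3 and 22.3 CPM at day 0 (log2FC 3.89 ± 0.07). Cdh2, N-cadherin, rose by 1.51 ± 0.05 on the log2 scale to 389, 374 and 395 CPM. Hcn4, the pacemaker channel, had 662 counts at day 3 and 2 at day 0, both in replicate 1, a ratio of 350 (96.5 to 2900). Gja1, the main gap junction connexin of the ventricle, had 149, 149 and 146 CPM at day 3 and 159, 167 and 175 CPM at day 0, a log2FC of -0.17 ± 0.04 whose call was lost with upper quartile scaling (-0.07), library totals alone (-0.02) and the stricter filter (-0.1). The inward rectifier Kcnj2, which sets the resting potential, fell by 1.61 ± 0.10 on the log2 scale. Gja5 and Dsg2 had 0 counts in all 6 libraries. Among channels outside these lists, Kcnc4 had 2170 counts at day 3 and 0 at day 0, at least 765-fold higher, and the sodium leak channel Nalcn had a ratio of 1230 (481 to 4520).

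Of 14 natriuretic and vasoactive peptide genes, 10 were tested, 5 were higher and 3 lower, Edn1, Adm and the endothelin receptor Ednra. For this list and the atrial and ventricular lists below, the shares over all genes tested are 33.9% higher and 39.5% lower. Nppa, atrial natriuretic peptide, had 3.25, 3.84 and 3.49 CPM at day 3 and 0.3, 0.398 and 0.201 CPM at day 0 (log2FC 3.55 ± 0.24). Nppb, brain natriuretic peptide, had 20.0, 22.6 and 19.9 CPM at day 3, against 2.44, 2.99 and 3.19 CPM at day 0 (log2FC 2.86 ± 0.15). Corin, the protease that activates them, had a ratio of 102 (46.8 to 280) from 581 and 6 counts, and its log2FC was 6.59, or 7.51 without day 0 replicate 1. Edn1, the vasoconstrictor endothelin 1, and Adm, adrenomedullin, fell by 4.59 ± 0.13 and 3.62 ± 0.14 on the log2 scale. Of 12 genes listed as atrial, 7 were tested, 4 were higher and 2 lower, Nr2f1 and Nr2f2, nuclear receptors of atrial identity. Of 10 genes listed as ventricular, 5 were tested, 2 were higher, Lbh and Myl2, and 1 lower, Gja1, a call that 3 alternatives did not give. Myl4, Myl7 and Nppa of the atrial list rose together with Lbh of the ventricular list, which had 354, 336 and 354 CPM at day 3 and 30.0, 31.7 and 31.7 CPM at day 0.

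The cells' own cardiac transcription factors did not move in 1 direction. Of 24 listed, 14 were tested, 6 were higher and 7 lower, beside a background of 33.9% and 39.5%. Tbx2, a repressor of chamber genes, had 18.1, 17.5 and 19.6 CPM at day 3 and 0.23, 0.421 and 0.446 CPM at day 0, and Gata6 rose by 0.68 ± 0.07 on the log2 scale. Hopx, a homeodomain protein without DNA binding, had a ratio of 10.4 (7.16 to 15.7) from 296 and 30 counts, and a log2FC of 3.37, or 3.99 without day 0 replicate 1. Srf fell, with 125, 125 and 131 CPM at day 3 and 301, 297 and 299 CPM at day 0 (log2FC -1.23 ± 0.05), as did Zfpm2, the cofactor of Gata4 (-1.33 ± 0.05), and Tbx18 (-0.69 ± 0.05). The core factors Nkx2-5, Hand2 and Isl1 had 0 counts in all 6 libraries. Tbx20 had 1 count at day 3 and 4 at day 0, and Myocd, the coactivator of SRF, had 14 and 0. At this depth their expression was not detectable or close to it.

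Smooth muscle genes rose as a group, and skeletal regulators stayed low. Of 13 smooth muscle genes, all tested, 11 were higher and 1 was lower, Smtn, with a median log2FC of 2.76. Npnt, a matrix ligand of integrin, had 458, 443 and 469 CPM at day 3 and 46.8, 42.9 and 47.5 CPM at day 0 (log2FC 3.32 ± 0.05), and its receptor chain Itga8 rose by 3.80 ± 0.12. Mylk, the myosin light chain kinase, rose by 3.77 ± 0.10, and Acta2, smooth muscle actin, which activated fibroblasts also make, by 1.11 ± 0.06 to 2800, 2750 and 2850 CPM. Cald1, caldesmon, was not called with TMM scaling (log2FC -0.02 ± 0.04), and with library totals alone it was called in the other direction. Of 17 skeletal regulators and junction genes, 5 were tested, 3 were higher and 1 lower. For the smooth muscle and skeletal lists, the shares over all genes tested are 33.9% higher and 39.5% lower. Myog, the skeletal differentiation factor, had 87 counts at day 3 and 0 at day 0, and Myod1 had 2 and 0. Rapsn, which clusters receptors at the nerve-muscle junction, rose by 2.19 ± 0.23 on the log2 scale.

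Energy metabolism shifted between pathways. Of 16 listed genes of muscle energy transfer, 13 were tested, 10 were higher and 2 lower, Cox6a2 and Atp5g1 (median log2FC 1.93); the call of Atp5g1 was lost in most alternatives. Eno3, the muscle enolase, had 347, 342 and 344 CPM at day 3 and 88.0, 91.6 and 92.2 CPM at day 0, while Ckm, muscle creatine kinase, and Mb, myoglobin, had 68 and 339 counts at day 3 and 0 at day 0. Of 30 genes of fatty acid uptake and oxidation, 29 were tested, 20 were higher and 5 lower, with a median of 0.30. Acaa2, the last enzyme of mitochondrial beta-oxidation, had 141, 135 and 137 CPM at day 3 and 34.7, 35.3 and 34.0 CPM at day 0 (log2FC 1.99 ± 0.05), and Ppargc1a, the coactivator of mitochondrial genes, rose by 1.88 ± 0.12. Fabp3, the fatty acid binding protein of heart, had a ratio of 64.4 (48.4 to 87.5), and its log2FC was 5.99 ± 0.20, or 6.61 without day 0 replicate 1. Fabp4, its adipocyte relative, fell by 4.72 ± 0.19. Of 19 glycolysis genes tested, 14 were lower and 3 higher (median -0.60, and -0.45 with library totals alone). The glucose transporter Slc2a1 fell by 1.52 ± 0.05 and the lactate transporter Slc16a1 by 1.55 ± 0.05, while Pfkm, the muscle phosphofructokinase, rose by 1.60 ± 0.05. All 23 tested genes of cholesterol synthesis but 3 were higher (median 0.90), among them Idi1 with 28.9, 29.0 and 30.7 CPM at day 3 and 8.41, 8.15 and 7.56 CPM at day 0. Ebp was lower, a call lost in most alternatives. Respiratory chain subunits, with 13 higher and 4 lower of 35, had a median of 0.10. With library totals alone 24 were higher and the median was 0.25. Of 18 citric acid cycle genes, 5 were higher and 9 lower, with a median whose sign depends on the scaling. The shares over all genes tested, beside these lists, were 33.9% higher and 39.5% lower.

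**Figure D3:**
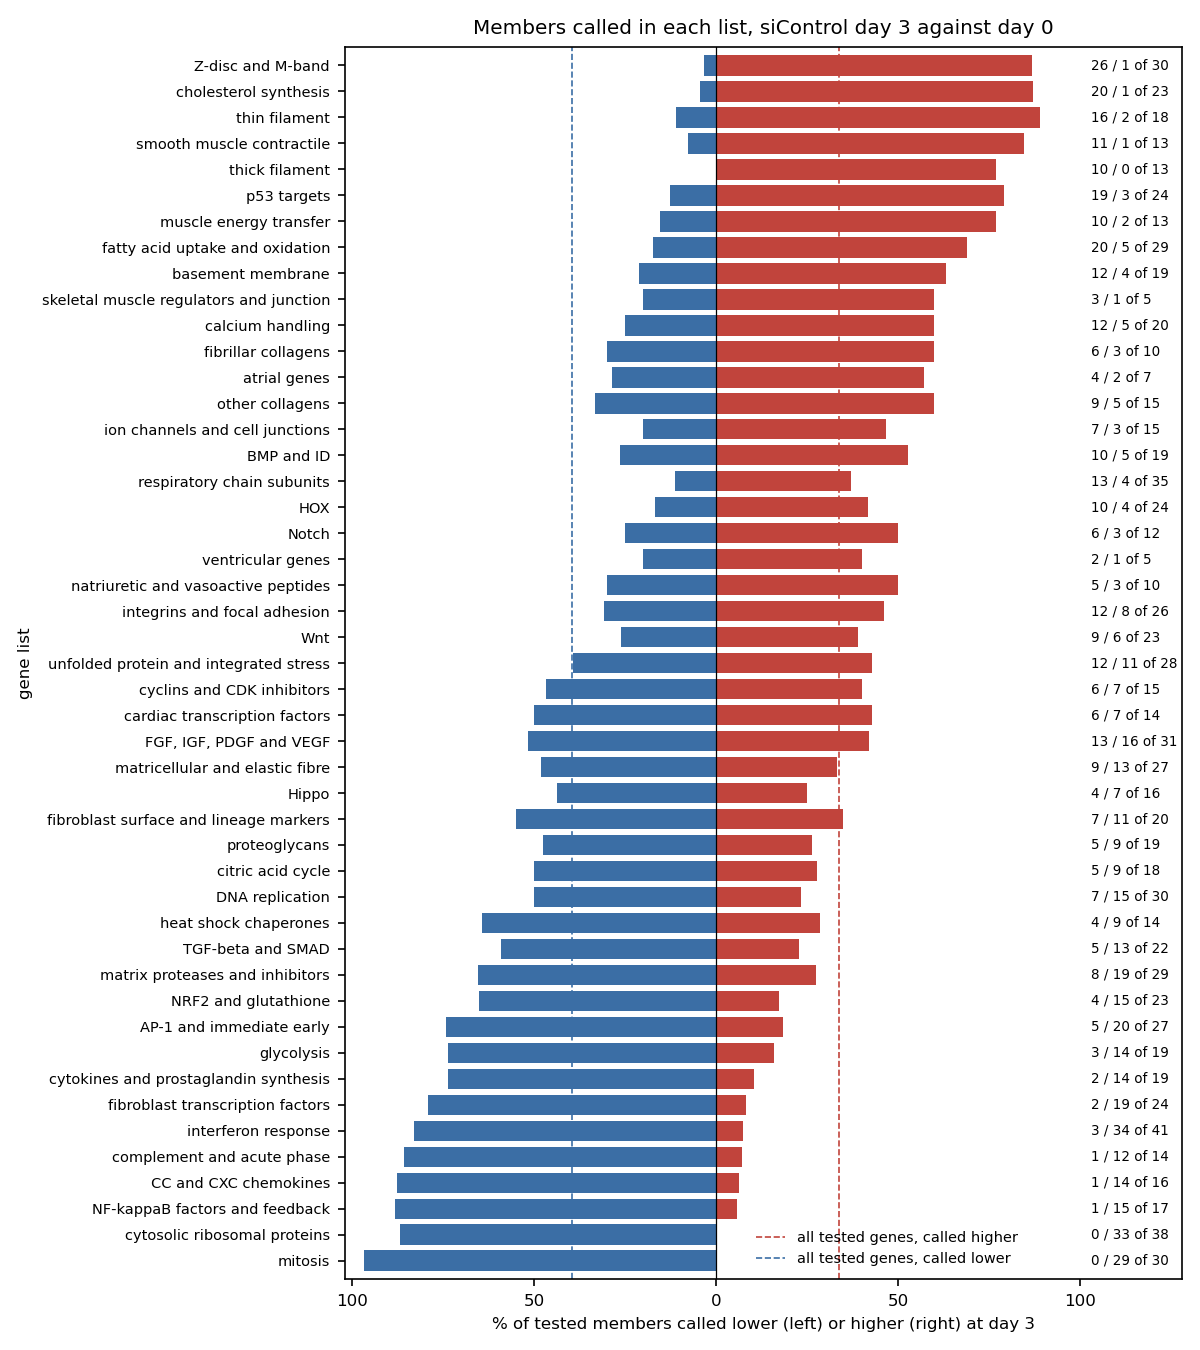
Share of tested members of each gene list called higher (right) or lower (left) at day 3 against day 0 in siControl cells, with the counts at the right edge; dashed lines mark the shares over all 13802 tested genes, 33.9% higher and 39.5% lower. Z-disc and M-band, smooth muscle, cholesterol synthesis and p53 target lists lie far right, and mitosis, ribosomal protein, complement and chemokine lists far left; the counts of respiratory chain, citric acid cycle, DNA replication, cyclin, Hippo, TGF-beta, ventricular and unfolded protein lists depend on the scaling.

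Fibroblast transcription factors fell in most cases. More fibroblast markers fell than rose, though some abundant ones, such as Vim, rose. Of 30 listed factors, 24 were tested, 19 were lower and 2 higher (median -0.79), beside 39.5% lower over all genes. Bnc1, Ebf1, Snai2 and Foxp1 fell by 2.16 ± 0.08, 2.01 ± 0.07, 1.58 ± 0.07 and 1.56 ± 0.05 on the log2 scale. Twist1, a master factor of mesenchyme, fell less, with 39.1, 34.2 and 37.1 CPM at day 3 and 52.1, 52.5 and 52.1 CPM at day 0. Creb3l1, which drives collagen secretion, rose, with 22.6, 21.0 and 23.4 CPM at day 3 and 2.01, 1.68 and 2.43 CPM at day 0 (log2FC 3.45 ± 0.11). Of 23 surface and lineage markers, 20 were tested, 7 were higher (35%) and 11 lower (55%). The share of higher members was near the 33.9% of all genes tested. Vim, the mesenchymal intermediate filament and the gene with the highest TPM at day 3, had 6040, 5870 and 5980 CPM at day 3 and 3900, 3880 and 3950 CPM at day 0. Fn1, fibronectin, rose by 0.42 ± 0.05 and Serpinh1, the collagen chaperone, by 0.71 ± 0.05, while Pdgfra fell by 0.61 ± 0.05 and Pdpn by 1.38 ± 0.06. Thy1 had 11 counts at day 3 and 6 at day 0, so this marker was at or near 0 at both times. Of 12 defining fibroblast markers, 10 were tested, 3 were higher (30%) and 6 lower (60%), with a median log2FC of -0.47. Their summed level was 11700 to 12100 TPM at day 3 and 7460 to 7680 TPM at day 0. Most of this sum came from Vim alone, with 8640 TPM at day 3 and 5040 TPM at day 0.

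Within the collagens, individual chains moved in opposite directions. Col1a1 had 3190, 2880 and 3170 CPM at day 3 and 1910, 1720 and 1750 CPM at day 0 (log2FC 0.78 ± 0.06), while Col1a2, which joins it in type I collagen, had 999, 876 and 983 CPM at day 3 and 1300, 1240 and 1270 CPM at day 0 (log2FC -0.41 ± 0.05). Both changes were larger than the spread of the libraries. Col3a1 fell by 2.27 ± 0.09 to 14.3, 10.2 and 12.9 CPM, and Col5a2 rose by 1.39 ± 0.04. Col11a1, a chain more typical of cartilage, had 151, 135 and 152 CPM at day 3 and 11.7, 10.8 and 12.5 CPM at day 0. Col12a1, a fibril-associated collagen, had 2720, 2500 and 2670 CPM at day 3, against 172, 174 and 176 CPM at day 0 (log2FC 3.92 ± 0.06). Of 10 fibrillar collagens tested, 6 were higher and 3 lower, and of 15 other collagens, 9 were higher and 5 lower. Beside them, 33.9% of all genes tested were higher and 39.5% lower. With upper quartile scaling or library totals alone, 3 of the other collagens were lower.

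Basement membrane genes were mostly higher. Nid2 (chromosome 14, 19751257 to 19811787), nidogen 2, which links laminin to collagen IV, had 4270, 4130 and 4250 CPM at day 3 and 70.8, 68.7 and 67.1 CPM at day 0 (log2FC 5.94 ± 0.06, edgeR adjusted p = 8.96e-26). Its relative Nid1 had 844, 800 and 821 CPM at day 3, against 997, 974 and 963 CPM at day 0 (log2FC -0.25 ± 0.04). The 2 nidogens thus moved apart. Col4a5 rose by 4.69 ± 0.06, whereas Col4a1 was not called (0.09 ± 0.05). With other scalings, other filters, DESeq2 or only the compared libraries, Col4a1 was called higher, at log2FC of 0.14 to 0.24. Lama2, the laminin chain of muscle, had 3758 counts at day 3 and 8 at day 0, a ratio of 497 (252 to 1150), and Lama4 fell by 0.86 ± 0.05. Of 19 tested members, 12 were higher and 4 lower, beside 33.9% and 39.5% of all genes tested.

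Proteoglycans and hyaluronan synthesis were lower in more members than higher, with 9 lower (47.4%) and 5 higher (26.3%) of 19 tested, near the 39.5% and 33.9% of all genes. Dcn, decorin, which binds collagen fibrils, had 8.04, 7.31 and 7.97 CPM at day 3 and 165, 171 and 170 CPM at day 0 (log2FC -4.44 ± 0.13, edgeR adjusted p = 2.07e-18). Has2, the hyaluronan synthase, had 0.96, 0.89 and 0.918 CPM at day 3, against 24.9, 25.0 and 24.4 CPM at day 0 (log2FC -4.75 ± 0.13). Sdc4 fell by 1.71 ± 0.04 and Bgn by 0.88 ± 0.05, while Cspg4 rose by 0.64 ± 0.05. Of 27 matricellular and elastic fibre genes, 13 were lower (48.1%) and 9 higher (33.3%), also near the shares of all genes. The targets of mechanical and YAP signalling Ctgf and Cyr61 fell by 1.71 ± 0.05 and 1.33 ± 0.04, and Ltbp2 by 2.03 ± 0.05. Sparc rose by 1.22 ± 0.04 to 2450, 2340 and 2520 CPM, Fbln5 by 2.00 ± 0.05, and Efemp1 by 2.37 ± 0.05. Postn, a marker of activated fibroblasts, fell slightly, with 21.5, 15.7 and 20.5 CPM at day 3 and 25.4, 26.4 and 30.8 CPM at day 0.

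Proteases that cut matrix were among the largest falls. Mmp3, stromelysin 1, had 0.536, 0.572 and 0.666 CPM at day 3 and 527, 522 and 534 CPM at day 0 (log2FC -9.79 ± 0.11, edgeR adjusted p = 2.81e-25). Mmp13, collagenase 3, had 0.452, 0.297 and 0.689 CPM at day 3, against 167, 173 and 169 CPM at day 0 (log2FC -8.47 ± 0.15). Mmp10 had 0 counts at day 3 and 955 at day 0, at least 301-fold lower. Plaur, the urokinase receptor, fell by 2.27 ± 0.05, whereas Serpine2 rose by 2.36 ± 0.04 and Adamts4, an aggrecanase, by 2.42 ± 0.08. Of 29 tested proteases and inhibitors, 19 were lower and 8 higher, beside 39.5% and 33.9% of all genes tested.

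**Figure D4:**
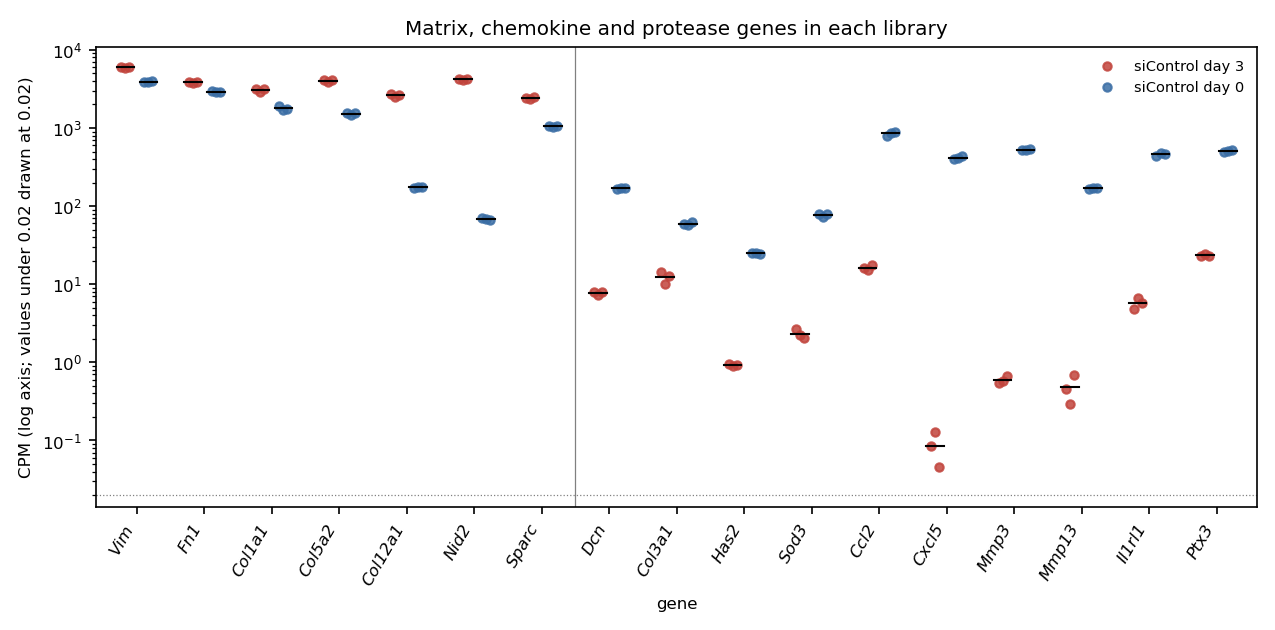
CPM (log axis) of matrix, chemokine and protease genes in siControl cells, with the 3 libraries of day 3 left of the 3 of day 0 for each gene; points are libraries, black bars are means, and values under 0.02 are drawn at 0.02. Nid2 averaged 4220 CPM at day 3 and 68.9 CPM at day 0, while Dcn averaged 7.77 CPM at day 3 and 169 CPM at day 0.

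The secretory programme of inflamed fibroblasts was lower at day 3. Of 28 chemokine genes, 16 were tested, 14 were lower and 1 higher (median log2FC -2.55), beside 39.5% and 33.9% of all genes tested. Cxcl5, which attracts neutrophils, had 0.0847, 0.127 and 0.0459 CPM at day 3 and 402, 412 and 433 CPM at day 0, a level 4770-fold lower at day 3 (2660 to 9550, from 11 and 55473 counts). Ccl2, which attracts monocytes, had 15.9, 15.2 and 17.7 CPM at day 3 and 795, 874 and 889 CPM at day 0 (log2FC -5.71 ± 0.14), and Cxcl1 and Ccl5 fell by 5.62 ± 0.14 and 4.66 ± 0.19. Each of these had no overlap between groups, as did 79.2% of all genes tested. Ccl17 was the exception, with 309 counts at day 3 and 7 at day 0 (log2FC 5.48, or 6.58 without day 0 replicate 2). Of 19 tested cytokine and prostaglandin genes, 14 were lower and 2 higher. Il1rl1, the receptor of IL-33, had 4.85, 6.72 and 5.83 CPM at day 3 and 441, 476 and 469 CPM at day 0 (log2FC -6.30 ± 0.09), Ptgs2, the inducible cyclooxygenase, fell by 3.29 ± 0.06, and Csf1 by 1.70 ± 0.05. Il6 fell by 3.85 ± 0.30, or 4.47 without day 3 replicate 2. Complement and acute phase genes were 12 lower and 1 higher of 14 (median -2.88), with Ptx3 at 22.7, 24.1 and 23.2 CPM at day 3 and 487, 503 and 526 CPM at day 0, and C3 lower by 2.61 ± 0.06.

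Genes that respond to NF-kappaB and to interferon were lower in nearly the whole lists. Of 17 NF-kappaB factors and feedback genes, 15 were lower and 1 higher, Icam1, on 30 counts at day 3 and 6 at day 0, with a call lost without several single libraries. Vcam1 fell by 3.21 ± 0.06, Zc3h12a by 2.52 ± 0.09, and Nfkbia, the NF-kappaB inhibitor, by 1.47 ± 0.04. Of 41 interferon response genes, all tested, 34 were lower and 3 higher (median -1.08). Zbp1 had 1.38, 1.55 and 0.849 CPM at day 3 and 31, 30.5 and 30.1 CPM at day 0, Oasl1 fell by 3.80 ± 0.16, and Ifit2, Ifi27 and Tap1 rose by 0.27 ± 0.06, 0.36 ± 0.09 and 0.33 ± 0.06. Of 27 AP-1 and immediate early genes, 20 were lower and 5 higher (median -0.68). Beside the lists of this paragraph, 39.5% of all genes tested were lower and 33.9% higher. Fosl1 fell by 3.40 ± 0.09, Myc by 2.47 ± 0.06 and Jun by 1.82 ± 0.04, while Nr4a3 rose by 2.93 ± 0.17 and Fos by 1.06 ± 0.18.

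Ligands and receptors of growth factor pathways changed in both directions. In the TGF-beta list, Tgfb2 had 139, 135 and 131 CPM at day 3 and 18.0, 15.0 and 16.3 CPM at day 0 (log2FC 3.04 ± 0.05), and Tgfb3 rose by 2.07 ± 0.05, while Tgfb1 fell by 1.03 ± 0.06 and Tgfbr3 by 1.57 ± 0.05. In the BMP list, Bmp1 and Bmp4 rose by 1.89 ± 0.05 and 1.93 ± 0.12 and the pseudoreceptor Bambi by 2.46 ± 0.10, while the antagonist Grem1 fell by 1.61 ± 0.04 and the target Id1 by 2.05 ± 0.08. The antagonist Nog had a ratio of 77.9 (42.1 to 163) from 737 and 10 counts. Among Wnt genes, Axin2, a target of the canonical pathway, had 41.9, 40.4 and 40.8 CPM at day 3 and 7.77, 7.22 and 6.86 CPM at day 0, Wif1, a secreted Wnt inhibitor, had 2705 and 2 counts, a ratio of 1430 (396 to 11800), with both day 0 counts in replicate 3, and Sfrp1, another inhibitor, fell by 2.59 ± 0.04. Among Notch genes, 6 were higher and 3 lower of 12, with Notch3 and Hes1 higher by 2.98 ± 0.08 and 1.23 ± 0.06 and Notch2 lower by 0.84 ± 0.05. Fgf18 had a ratio of 56.8 (42.4 to 77.8) and Pdgfb rose by 4.87 ± 0.10 to 48.3, 42.6 and 47.1 CPM, against 1.45, 1.64 and 1.60 CPM at day 0, while Fgf10, Igfbp3 and Igfbp4 fell by 2.28 ± 0.06, 2.95 ± 0.09 and 3.14 ± 0.08. The TGF-beta list had 5 higher and 13 lower of 22 with TMM scaling and 8 and 8 with library totals alone. For all list counts of this paragraph, the shares over all genes tested are 33.9% higher and 39.5% lower. Of 23 Wnt genes tested, 9 were higher (39.1%) and 6 lower (26.1%), and of 19 BMP genes, 10 and 5. Of 31 genes of FGF, IGF, PDGF and VEGF, 13 were higher (41.9%) and 16 lower (51.6%). Of 16 Hippo genes, 4 were higher (25%) and 7 lower (43.8%), and Wwtr1 and Stk4 were not called with TMM scaling. Of 24 HOX genes, 10 were higher and 4 lower, with a median that changes sign between scalings. Integrins and focal adhesion genes, 12 higher and 8 lower of 26, included Itga1 and Itga3 with rises of 2.62 ± 0.10 and 1.54 ± 0.05 and Tln1, talin, with a fall of 0.80 ± 0.05.

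Genes of cell division were lower, and targets of p53 were higher. Of 30 mitosis genes, all tested, 29 were lower and none higher (median log2FC -0.86), beside 39.5% and 33.9% of all genes tested. Mki67, the proliferation marker, had 277, 271 and 273 CPM at day 3 and 828, 806 and 813 CPM at day 0 (log2FC -1.57 ± 0.05, edgeR adjusted p = 2.3e-18), and Cenpf and Bub1b fell by 1.53 ± 0.05 and 1.32 ± 0.04. Mad2l1 was not called. Of 30 DNA replication genes, 7 were higher and 15 lower with TMM scaling and 13 and 9 with library totals alone, and Mcm6 and Mcm7 were higher while Uhrf1 and Pole were lower. Cdkn1a, the p53-induced inhibitor of the cell cycle, had 927, 978 and 934 CPM at day 3 and 237, 231 and 231 CPM at day 0 (log2FC 2.02 ± 0.05). Cdkn2b and Cdkn2a rose by 1.39 ± 0.06 and 1.04 ± 0.04, and Ccnd1, cyclin D1, fell by 1.60 ± 0.05. Of 24 p53 targets, 19 were higher and 3 lower (median 1.00), with Trp53inp1, Btg2 and Eda2r higher by 2.71 ± 0.08, 2.45 ± 0.04 and 2.29 ± 0.06. Trp53 itself was lower by 0.35 ± 0.04, as were Plk2 and Gadd45a.

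Ribosomal protein, redox and chaperone genes were mostly lower. Of 38 cytosolic ribosomal protein genes, 33 were lower and none was higher, with a median of -0.47 (-0.33 with library totals alone), and Rplp0 had 1480, 1510 and 1510 CPM at day 3 and 2110, 2120 and 2180 CPM at day 0. Of 23 NRF2 and glutathione genes, 15 were lower and 4 higher (median -0.83). Sod3, the extracellular superoxide dismutase, had 2.68, 2.23 and 2.07 CPM at day 3 and 80.2, 71.9 and 78.6 CPM at day 0 (log2FC -5.06 ± 0.09), Nqo1 fell by 2.41 ± 0.10, and Gpx1 rose by 1.28 ± 0.07. Of 14 heat shock chaperones, 9 were lower and 4 higher, with Hspd1 and Hsp90ab1 lower by 1.72 ± 0.04 and 1.12 ± 0.05 and Hspb2, a muscle chaperone, with 496 counts at day 3 and 3 at day 0 (a ratio of 175, interval 59.5 to 851), with all 3 in replicate 1. The unfolded protein and integrated stress list was split, with 12 higher and 11 lower of 28, or 7 lower with library totals alone. Of all genes tested, 33.9% were higher and 39.5% lower.

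Among the 12 genes with the largest falls were also Kng1 and Kng2, kininogens, Hsd11b1, which reactivates glucocorticoids, Akr1c18, and U90926. Hsd11b1 had 0.113, 0.254 and 0.344 CPM at day 3 and 37.5, 41.9 and 42.2 CPM at day 0, a level 165-fold lower (116 to 243). Kng1 had 18 counts at day 3 and 3472 at day 0, a level 182-fold lower (115 to 308). Kininogen genes of the mouse are similar in sequence, and how the counting treated reads shared between them is not given in the sources used here. Adamtsl2, a matrix protein, was among the 12 largest rises, with 1312 counts at day 3 and 0 at day 0, at least 463-fold higher.

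Markers of other cell types were measured as a check of the line. Endothelial markers summed to 8.64 to 10 TPM at day 3 and 12.3 to 13.4 TPM at day 0, with 2 higher and 3 lower of 6 tested. Cdh5, the endothelial cadherin, had 1 count at day 3 and 250 at day 0, a level 236-fold lower (42 to 9370), and Kdr had 0 and 14 counts. Erg went the other way, with 102 counts at day 3 and 36 at day 0, a ratio of 3 (2.03 to 4.51). The 1 day 3 count of Cdh5 lay in replicate 3. Macrophage and leukocyte markers summed to 51.1 to 53.2 TPM at day 3 and 84.8 to 91.1 TPM at day 0, and Ptprc, the pan-leukocyte marker, had 3 and 9 counts. In that list 2 members were higher, both by at least 2-fold, and 4 lower of 7 tested. With the stricter filter 1 was higher. Epithelial markers stayed at 1.49 to 2.79 TPM at day 3 and 0.999 to 1.7 TPM at day 0. Neural markers summed to 301 to 316 TPM at day 3 and 142 to 148 TPM at day 0. Adipocyte markers summed to 24.9 to 27.2 TPM at day 3 and 74.8 to 81.5 TPM at day 0, cartilage and bone markers to 13.8 to 14.2 and 17 to 19.5 TPM, and epicardial markers to 155 to 165 and 98.9 to 104 TPM. The cartilage and bone sum fell although 4 of 8 tested members were higher and 2 lower (median log2FC 1.79). Neural markers had 3 higher and 1 lower of 7, adipocyte markers 2 and 2 of 4, and epicardial markers 3 and 2 of 6. Of all genes tested, 33.9% were higher and 39.5% lower. The part of these cell types in the results was not tested.

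The net change was divided in time by setting day 3 against day 1. Of all genes tested, 3150 (22.8%) were higher and 4462 (32.3%) lower at day 3 than at day 1. Thus 41.4% of the calls were higher, against 50.9% with the stricter filter and 65% with library totals alone. The 3 delivered factors were lower at day 3 than at day 1, with Tbx5 at 138, 140 and 132 CPM at day 0, 1250, 1200 and 1210 CPM at day 1 and 745, 740 and 745 CPM at day 3 (log2FC of day 3 over day 1 of -0.71 ± 0.05). Many muscle genes went on rising, with Tnnt2 at 9.65, 86.2 and 680 CPM on average at days 0, 1 and 3 and a log2FC of 2.98 ± 0.07 between days 1 and 3. Myl4 averaged 1.78, 12.9 and 249 CPM at these days (4.27 ± 0.12). In the sarcomere lists, 13 of 18 thin filament, 8 of 13 thick filament and 20 of 30 Z-disc and M-band genes rose between days 1 and 3, while 3, 2 and 7 members fell. Myh6 was among those that fell, with 2.86 CPM at day 1 and 1.42 CPM at day 3 (log2FC -1.01 ± 0.18, edgeR adjusted p = 5.67e-05).

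The falls of Ccl2 and Il1rl1 were mostly in place at day 1, and those of Mmp3 and Dcn went on. Ccl2 averaged 853, 20.5 and 16.3 CPM at days 0, 1 and 3, and Il1rl1 462, 8.1 and 5.8 CPM. Mmp3 averaged 528, 19.9 and 0.591 CPM (log2FC of day 3 over day 1 of -5.06 ± 0.13), and Dcn 169, 41.7 and 7.77 CPM (-2.43 ± 0.13). In the matrix, Col12a1 averaged 174, 580 and 2630 CPM (2.18 ± 0.06) and Serpine2 60.7, 65.8 and 312 CPM (2.25 ± 0.04), so that most of their difference from day 0 was present only at day 3. Vim averaged 3910, 9280 and 5970 CPM and cholesterol gene Cyp51 56, 259 and 153 CPM, each lower at day 3 than at day 1 while still above day 0. Of 23 cholesterol genes, 17 were lower at day 3 than at day 1 and 1 was higher, and of 30 mitosis genes 29 were lower. Because these values share the day 3 libraries with the main comparison, the 2 comparisons are not independent.

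**Figure D5:**
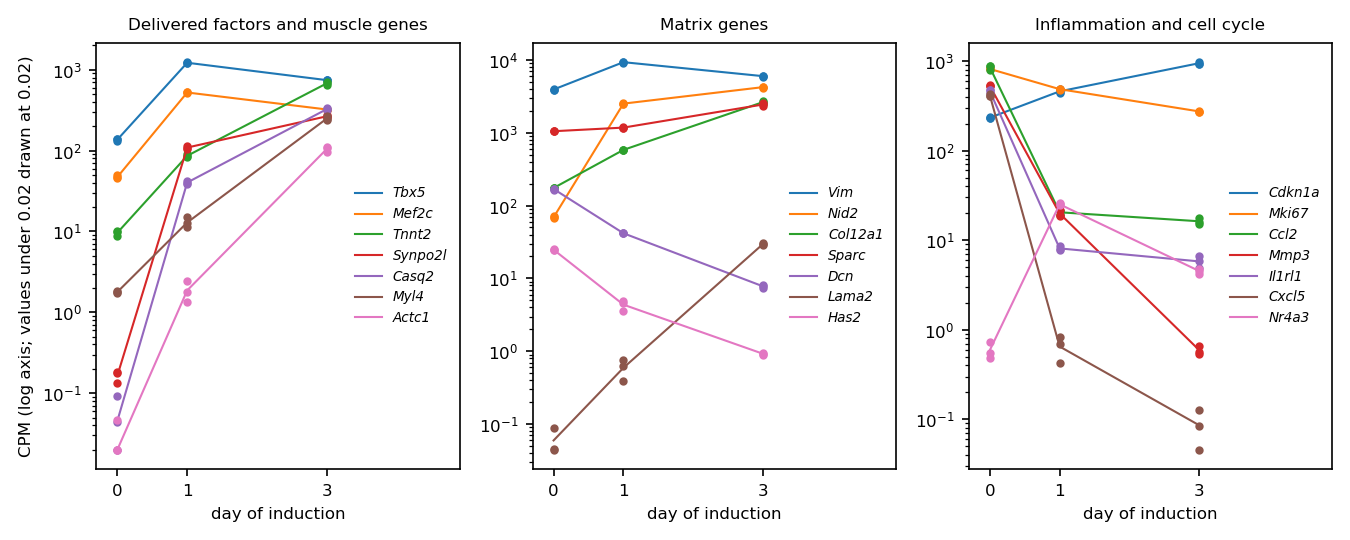
CPM (log axis) of selected genes in siControl cells at days 0, 1 and 3 of induction (horizontal axis, to scale); points are the 3 libraries of each day, lines join the means, and values under 0.02 are drawn at 0.02. Tbx5 and Vim are highest at day 1, Tnnt2, Myl4 and Col12a1 are highest at day 3, and Ccl2 is near its day 3 level at day 1.

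The change from day 0 to day 3 was also tested against that of siChst7 cells. The interaction, the change in siChst7 minus that in siControl, was called in 5356 genes (38.8%), 2853 with a larger and 2503 with a smaller value in siChst7 cells, but by at least 1 on the log2 scale in only 599. Of all calls of the interaction, 53.3% were higher with TMM scaling and 35.7% with library totals alone. With TMM, the share was 45.6% with the stricter filter and 45.2% without siChst7 day 3 replicate 3. For the delivered factors the interaction was -0.37 ± 0.07 for Mef2c, -0.22 ± 0.07 for Gata4 and -0.20 ± 0.07 for Tbx5. Tnnt2 had an interaction of -0.85 ± 0.11, with 815 CPM at day 3 and 20.8 CPM at day 0 in siChst7 cells and 680 CPM at day 3 and 9.65 CPM at day 0 in siControl cells, so that its smaller fold in siChst7 cells went with a higher day 0 level. Tnnc1 went the other way (1.24 ± 0.29, with an adjusted p of 0.116 by limma-voom), and Myl4 likewise (0.96 ± 0.28). Nid2 and Mki67 were not called, with interactions of -0.07 ± 0.07 and -0.12 ± 0.06. The siChst7 day 3 libraries stood apart from each other, as described above. Replicate 3 of siChst7 day 0 also stood apart from its group, at 15 and 14.6 times counting variance against replicates 1 and 2, which differed by 3.62. Their part in these values was not tested.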

How the data were processed

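Poly-A RNA was sequenced from 18 libraries in 6 groups of 3, and groups and replicate numbers were taken from the sample labels. The authors deposited 1 table of raw counts per gene with gene lengths and coordinates, and per the submitters' processing notes HISAT2, Subread, featureCounts, DESeq2 and the build mm10 were used, with versions, annotation, strand setting and treatment of shared reads not given in the sources used here. Reads of genes that overlap or are near-identical (Prl2c2, kininogens, interferon families) may therefore be split or mixed.

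Counts were analysed with edgeR 4.0.16 in R 4.3.3. Genes were kept by filterByExpr, scaled by TMM and fitted in 1 quasi-likelihood model of the 6 groups with 12 residual degrees of freedom, and tests were two-sided with Benjamini-Hochberg adjustment over all genes tested. CPM uses TMM-scaled totals, and TPM uses the deposited lengths. Ratios on few counts have exact 95% intervals for counting error only, and a group at 0 was set to 3 counts over the group. The procedure was tested on simulated data. Alternatives were other scalings and filters, DESeq2 1.42.0, limma-voom (limma 3.58.1), a replicate block, only the compared libraries, and each library left out.

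Genes were named by rule: fixed anchor genes, the 12 largest changes each way among called genes with a mean of at least 5 CPM and no overlap of the groups, up to 4 called members of each list in each direction by p, and up to 2 abundant members of each list that were not called or went against their list. The members and lists were chosen with earlier results of these data known. Tpm1, Flnc, Myh1, Myl3, Des, Trdn, Gja5, Dsg2, Isl1, Mmp10, Nog, Kdr and Ptprc were named after their values were seen. Some results are not reported here. Promoters came from RefSeq (GRCm38.p6), 1 per gene.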

Additional observations from a re-analysis of the deposited data

Results flagged for a closer look

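Of the named genes reported here, 43 changed differently between day 0 and day 3 in siChst7 cells than in siControl cells, by a called interaction of at least 1 on the log2 scale in edgeR's test. The named genes that were tested numbered 412, and 599 of all 13802 genes tested had such an interaction. Many named genes were chosen by their change in siControl cells. The interaction subtracts that same change, so the choice favours interactions of the opposite sign. Values below are the change in siChst7 minus that in siControl. No explanation was tested, and the siChst7 day 3 libraries stood apart from each other. Without replicate 3 of that group, 41 of the 43 were called, and Myh7 (adjusted p = 0.1) and U90926 (adjusted p = 0.0756) were lost, and 36 still reached 1 on the log2 scale. That number was 38 with library totals alone or without siControl day 0 replicate 1.

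Among muscle and peptide genes, the interaction was 2.76 for Nppb, with 56 CPM at day 3 and 1.14 CPM at day 0 in siChst7 cells and 20.9 CPM at day 3 and 2.87 CPM at day 0 in siControl cells. It was 2.62 for Nppa, 2.9 for Jph2, 1.24 for Tnnc1, 1.66 for Acta2, 1.31 for Myh7, 1.76 for Pkp2, 1.32 for Hey2, 1.33 for Lims2 and 1.07 for Edn1. Jph2 had 140 CPM at day 3 and 0.057 CPM at day 0 in siChst7 cells, against 118 CPM and 0.381 CPM in siControl cells. The interaction was -4.5 for Mybph, which had 0 counts in siControl cells at day 0, so that its size is no bound (-2.77 with limma-voom). It was -1.35 for Ednra and -1.71 for Lama2 (-1.38, adjusted p = 0.0953, without siChst7 day 0 replicate 3).

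Among metabolic genes, Ndufa4 had 329 CPM at day 3 and 94.6 CPM at day 0 in siChst7 cells, against 143 CPM and 91.3 CPM in siControl cells (interaction 1.15). The interaction was 1.24 for Cycs, 2.21 for Cox6a2 and 1.37 for Fabp3 (0.75, adjusted p = 0.233, without siControl day 0 replicate 1). Ppargc1a had 13.3 CPM at day 3 and 12.3 CPM at day 0 in siChst7 cells, against 16.2 CPM and 4.4 CPM in siControl cells (interaction -1.78).

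Among inflammatory genes, Ccl2 had 66.8 CPM at day 3 and 975 CPM at day 0 in siChst7 cells, against 16.3 CPM and 853 CPM in siControl cells (interaction 1.84). The interaction was 2.65 for Ccl5, 2.57 for Cxcl5, 1.86 for Il6 (2.48 without siControl day 3 replicate 2), 1.32 for Ptgs2, 2.37 for Tslp, 1.8 for Zbp1, 1.16 for Oasl1, 1.17 for Oasl2, 1.14 for Rsad2 and 1.03 for Ifi27. It was -1.34 for Il1rn.

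Among the other genes, the interaction was 1.24 for Ctgf, 1.1 for Inhba, 1.08 for Tgfb2, 1.01 for Jag1, 1.39 for Kng2, 3.12 for Krt19 (3.74 without siChst7 day 0 replicate 1) and 2.14 for U90926 (5.63 without siControl day 3 replicate 3, and 1.51, adjusted p = 0.109, without replicate 2). It was -1.19 for Pdgfra, -1.57 for Nr4a3, -2.29 for Sox5, -1.11 for Fgf18, -1.02 for Igfbp3 and -1.07 for Hspa1a. With limma-voom, 39 of the 43 were called, and the adjusted p was 0.116 for Tnnc1, 0.233 for Fabp3, 0.0702 for Lama2 and 0.0587 for Myh7.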

How the results depend on the processing

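With each library left out in turn, 4426 to 4502 genes were called higher at day 3 than at day 0 and 5213 to 5306 lower, and over the other alternatives 4661 to 5807 higher and 4238 to 5466 lower. With library totals alone, 4833 genes were higher and 2599 lower at day 3 than at day 1, against 3150 and 4462 with TMM, and those at least 2-fold lower numbered 179, or 174 with the stricter filter, against 275. For the interaction, 3780 genes were lower with library totals alone, against 2503, and those at least 2-fold higher ranged from 287 to 657 with each library left out, the lowest without siChst7 day 3 replicate 3. With library totals alone the log2FC of Cald1 was 0.13, Lamb1 0.02, Loxl4 0.13, Stk4 0.14 and Wwtr1 0.13, each opposite in sign to TMM. The cause was not tested beyond the scaling itself. Respiratory chain members called higher numbered 24 with library totals alone. Same-numbered libraries of siControl day 3 and day 0 correlated at 0.02, 0.05 and 0.03, and differently numbered ones at -0.03 to 0. Such small values do not settle whether the numbers pair the libraries. With the replicate block, 4661 genes were higher and 5423 lower, and no call of a named gene changed. Added after seeing the data, the block with only the compared libraries gave 5411 higher and 5184 lower. Depth limits genes with few counts, whose ratios have wide intervals.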
